A study of Mus musculus with 6 samples.

Results

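The cytosolic ribosomal protein genes were examined in inguinal subcutaneous white adipose tissue (SC-WAT) of Egr1+/+ and Egr1-/- mice. They were chosen by symbol, as the protein-coding genes of the GENCODE annotation of GRCm38 named Rpl or Rps followed by a digit, or Rplp0 to Rplp2, leaving out the Rps6k kinases and pseudogene symbols. The rule took 85 of the 47069 genes in the files, of which 32 are small subunit proteins, 52 are large subunit proteins including 3 stalk proteins, and 1, Rps19bp1, encodes a protein that binds a ribosomal protein but is not one. The 85 genes lie on 19 chromosomes and, without Rps19bp1 and 8 paralogs, leave 76 core members. Of 4 further ribosomal protein genes whose names fall outside the rule, Rpsa, Fau and Rack1 were described separately.

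RNA was sequenced from inguinal fat pads of 3 Egr1+/+ and 3 Egr1-/- female C57BL/6 mice aged 2 weeks, 1 library per mouse. The methods name the background of the line as C57BL/6 J. Both genotypes came from crosses of heterozygous mice, over several litters. The Egr1-/- allele carries a LacZ insertion in the Egr1 5′ untranslated region and a frameshift before the DNA-binding domain, in every cell of the animal, so the fat pad was not the only tissue without EGR1. EGR1 is a zinc finger transcription factor that is induced rapidly by growth and stress signals.

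The cytosolic ribosome is built from ribosomal RNA and one copy of most ribosomal proteins in a small and a large subunit, and it makes nearly all the proteins of the cell. Most ribosomal protein mRNAs begin with a run of pyrimidines called a TOP motif, through which the kinase mTORC1 and the RNA-binding protein LARP1 set their translation. Their mRNA level and their translation can therefore differ, and only the mRNA level was measured here. Ribosomal protein genes have many processed pseudogenes, and many of them carry small nucleolar RNAs (snoRNAs) in their introns.

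To show the start sites behind the TOP description, 300-base windows (250 before and 50 after the annotated start) were read from the RefSeq promoter table of GRCm38.p6, which held 65 of the 85 genes. A run of at least 7 C or T letters that began with C within 10 bases of the start was found in 30 of these 65 genes (46.2%) and in 14.1% of all 27025 genes of the table. The windows below run 5′ to 3′ on the gene's strand from 10 bases before the start, with the run in capitals, for 6 members described below.
Rps6 (chr4:86857348-86857377, minus strand): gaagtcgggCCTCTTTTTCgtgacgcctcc
Rpl35 (chr2:39005112-39005141, minus strand): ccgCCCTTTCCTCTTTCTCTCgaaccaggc
Rpl28 (chr7:4792955-4792984, plus strand): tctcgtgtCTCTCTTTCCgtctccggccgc
Rpl31 (chr1:39367841-39367870, plus strand): tcctcgCCTCCCCgtgacccggaagttgta
Rps27 (chr3:90213629-90213658, minus strand): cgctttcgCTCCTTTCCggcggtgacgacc
Rplp2 (chr7:141447641-141447670, plus strand): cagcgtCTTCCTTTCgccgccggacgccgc
The RefSeq starts can lie some bases from the starts in use in this tissue, so a window without a run says only that these letters are not near the annotated start.

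Because EGR1 binds GC-rich sites, the letters GCGNGGGCG were searched on both strands of the same windows. They were found in 8 of the 65 genes (12.3%) and in 6.27% of all genes, and the windows of 4 of the 8 are shown with the match in capitals.
Rpl12 (chr2:32961682-32961711, plus strand): cctatatccgGCGTGGGCGgagcaggatcc
Rps13 (chr7:116334197-116334226, minus strand): tatgtagcccCGCCCCCGCgcgagagcaaa
Rps24 (chr14:24490649-24490678, plus strand): gccttagccaCGCCCCCGCgctggggtcct
Rps27l (chr9:66946040-66946069, plus strand): ctagagcggtCGCCCCCGCctccactcctc
The 8 genes are Rpl12, Rpl27a, Rpl7a, Rps13, Rps15a, Rps2, Rps24 and Rps27l. Their log2 fold changes between genotypes lay between -0.17 and 0.15 with a median of 0.03, against a median of -0.13 for the 56 tested genes with a window and no match. These matches were not tested for binding.

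The 6 libraries held 29661984 to 42357981 counts on genes, of which 50.0% to 66.3% lay on genes of the mitochondrial genome. Egr1 itself was lower in every Egr1-/- mouse, at 3.09, 2.71 and 1.84 CPM against 10.3, 8.02 and 16.5 CPM in the Egr1+/+ mice. CPM here is the count relative to the library total, scaled by edgeR's TMM method for library composition. The fitted log2 fold change of Egr1 was -2.19 ± 0.299 (SE), with an adjusted p = 0.0878 by the edgeR quasi-likelihood test with Benjamini-Hochberg adjustment over 17667 tested genes. It passed the threshold with DESeq2, with total-count scaling and without a filter on low counts. The libraries differed in the RNA of cell type markers. The summed adipocyte markers (2 of 6 genes higher and 4 lower in Egr1-/- mice) were 5692 to 6113 CPM in Egr1+/+ mice and 4518 to 5494 CPM in Egr1-/- mice, so the labelled tissue was present in all 6. Stromal markers (5 of 5 genes lower, none passing the adjusted threshold) summed to 1803 to 1839 CPM against 964 to 1369 CPM, and macrophage markers (5 of 5 lower, none passing) to 192 to 264 CPM against 133 to 180 CPM. Lymphocyte markers (9 of 9 higher, none passing) summed to 402 to 445 CPM against 316 to 680 CPM. Endothelial markers (2 of 4 lower) summed to 341 to 436 CPM and 310 to 465 CPM, and mammary epithelial markers (4 of 5 higher) to 0.815 to 9.99 CPM and 5.27 to 8.28 CPM, with no marker at 0 in all mice. Their part in the values below was not tested. In a whole fat pad, fewer cells of a type and less RNA per cell cannot be told apart.

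The ribosomal protein genes together took under 2% of the counts outside the mitochondrial genome in every mouse. The Egr1+/+ libraries gave them 1.43%, 1.64% and 1.83%, and the Egr1-/- libraries 1.36%, 1.68% and 1.51%. Summed over the 84 members with enough counts to be tested, without Rpl10l, their level was 6279, 7130 and 7835 CPM against 5823, 6826 and 6563 CPM. The genotypes overlapped on both scales, and 3 mice against 3 could give no exact permutation p below 0.1.

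Levels between genes were compared as CPM per kilobase of annotated exon, with the exons of all transcripts of a gene merged. This does not remove the effect of reads that match several genes. The merged length can exceed that of the transcript chosen to represent a gene. It was 1655 against 483 bases in Rpl36a and 810 against 394 in Rps21. In Rps3a1 (977 bases) and Rplp1 (499 bases) the lengths were equal, so the order below holds for merged exons only. The core members spread over a wide range, in which most lay within the SD of the next in order. The low tail held most of the paralogs with Rps19bp1, Rps16 and Rpl24. Rps3a1, a small subunit protein, was the highest at 342 ± 59.3 CPM per kilobase (SD, n = 6 mice). The stalk protein Rplp1 followed at 309 ± 29.7, a gap within the SD of Rps3a1. Rpl4 (187 ± 17.1), Rps21 (131 ± 21.4) and Rpl23a (128 ± 7.68) came next, and Rps21 and Rpl23a did not differ beyond their spread. Below them, Rps16 had 3.19 ± 1.31, Rps19bp1 3.08 ± 0.693, Rpl22l1 2.36 ± 0.549 and Rpl24 1.83 ± 0.635 CPM per kilobase. Rpl24 is a core large subunit protein, but 71.5% of its transcript lies under exons of Gm28037 on the same strand, a gene with 0 counts in all 6 mice. The part of this overlap in the Rpl24 count was not tested.

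**Figure D1:**
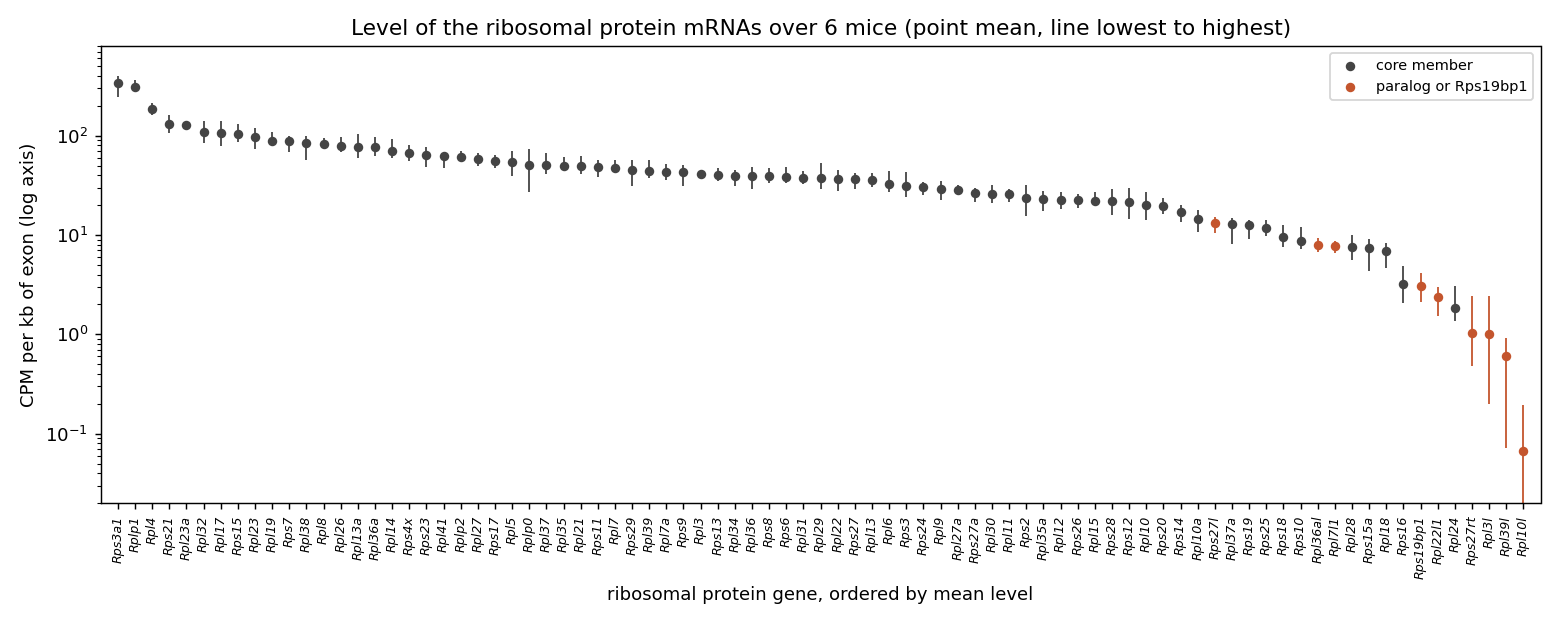
Level of 83 of the 85 ribosomal protein genes as CPM per kilobase of exon on a log axis, ordered by mean, where points are means over 6 mice and lines run from the lowest to the highest mouse. Rps3a1 and Rplp1 stand at the top, at 342 and 309 CPM per kilobase, while paralogs and Rps19bp1, drawn in orange, share the tail with Rpl24 and Rps16, and the line of Rpl10l leaves the axis because 2 mice had no count.

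The paralogs were present at lower per-kilobase levels than their parent genes in every case, with a different distance for each. The shares below depend on the merged exon lengths and were not computed with the length of the chosen transcript. The merged length was 1655 bases for Rpl36a and 1353 for Rpl36al, where the chosen transcripts had 483 and 1276. Rps27l, a paralog of Rps27 known as a p53 target, reached 36.5% of the per-kilobase level of Rps27. Rpl7l1 reached 16.3% of Rpl7, Rpl36al 10.3% of Rpl36a and Rpl22l1 6.39% of Rpl22. Rps27rt, which shares 91.1% of its 50-base stretches with other transcripts, stood at 2.82% of Rps27, so its reads can be split with the parent. Rpl39l and Rpl10l, which are known mainly from testis, stood at 1.37% of Rpl39 and 0.331% of Rpl10. Rpl10l was the only member left out of the tests for low counts, with 2, 6 and 1 counts in the wild-type libraries and 0, 4 and 0 in the mutant ones. None of the 7 tested paralogs passed the adjusted threshold by edgeR, and 0 had an unadjusted p under 0.05 (background 10.7%). Rpl22l1, whose mRNA its parent Rpl22 is known to hold down, had 3.03, 6.03 and 4.43 CPM against 3.99, 5.36 and 5.33 CPM, a log2 fold change of 0.12 (95% interval -0.46 to 0.71).

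Rpl3l, which replaces Rpl3 in striated muscle, was the member with the widest spread within genotypes, with an SD of 1.54 on the log2 scale. It had 2.10, 4.03 and 0.325 CPM in Egr1+/+ mice and 0.360, 0.549 and 2.65 CPM in Egr1-/- mice. Rpl3l was thus high in 2 Egr1+/+ mice and 1 Egr1-/- mouse, and the genotypes overlapped. The summed skeletal muscle markers were 1248, 3603 and 241 CPM in the Egr1+/+ mice and 133, 407 and 2976 CPM in the Egr1-/- mice. The 3 mice with the most muscle marker RNA were those with the most Rpl3l, in the same order, and only the last 2 mice changed places. The genotype fit gave Rpl3l a fitted difference of -0.84 on the log2 scale (SE 0.880, 95% interval -2.83 to 1.15), and leaving out 1 mouse moved it between -2.21 and -0.01. Its parent Rpl3 had 120, 132 and 139 CPM against 118, 138 and 131 CPM and did not share this order.

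**Figure D2:**
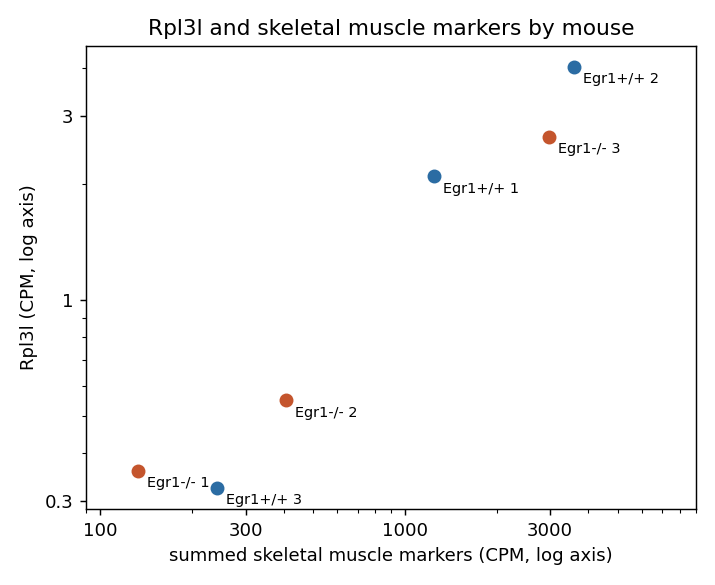
Rpl3l in CPM against the summed CPM of 10 skeletal muscle markers, both on log axes, 1 point per mouse, blue for Egr1+/+ and orange for Egr1-/-. Rpl3l lay above 2 CPM in the 3 mice with more than 1000 CPM of muscle markers and below 1 CPM in the others, with both genotypes in each group.

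No ribosomal protein gene passed the adjusted threshold between genotypes. Of the 84 tested members, 0 were called by the edgeR quasi-likelihood test at an adjusted p under 0.05, where the background over all tested genes was 0.0170% (3 of 17667). DESeq2 also called 0 members, with a background of 2.19%, and so did edgeR without a filter on low counts, with a background of 1.44%. At an unadjusted p under 0.05, 4 members were lower in Egr1-/- mice (background 5.60%) and 1 was higher (background 5.06%), so 5 of 84 (5.95%) against 10.7% of all tested genes. With the replicate number as a block, which is not known to pair the mice, 4 members had an unadjusted p under 0.05 (background 10.8%). Among the 6494 tested protein-coding genes at or above the 10th percentile of the members' level, the share at an unadjusted p under 0.05 was 15.3%. This set includes members and is not matched to their typical level. The genotypes did not overlap in 7 members, all lower in Egr1-/- mice (background 8.10%), and in 0 members higher (background 8.15%). The lower direction was near its background, and the higher direction was below it. The share of members at an unadjusted p under 0.05 depended on the setting. It was 17.9% (15 of 84) against 8.73% of all genes without Egr1+/+ mouse 1, and 2.38% against 7.58%, 13.0% and 6.38% of all genes without Egr1+/+ mouse 3, Egr1-/- mouse 1 and Egr1-/- mouse 3. With DESeq2, where genes of low count stay in the total, it was 8.24% against 4.74%.

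The direction of the members leaned lower in Egr1-/- mice by a small amount. The fitted fold change was below 0 in 62 of 84 members and above 0 in 22, where 49.9% of all tested genes were below 0. The median log2 fold change of the members was -0.12, against 0.00 for all tested genes, and 73 of 84 lay within 0.3 of 0. The 30 small subunit core members had a median of -0.09 and the 46 large subunit core members of -0.14. For 78 of 84 members the 95% interval lay within 1 log2 unit of 0, and for 54 within a 1.5-fold change in either direction. The 6 wider ones were Rpl24, Rpl39l, Rpl3l, Rplp0, Rps16 and Rps27rt. The median rested on single mice. Without Egr1+/+ mouse 3 it was -0.02, without Egr1-/- mouse 1 and without Egr1+/+ mouse 2 it was -0.04, and without Egr1+/+ mouse 1 it was -0.22. With total counts in place of TMM the median of all genes moved to -0.15 and that of the members to -0.26, a difference of -0.11 between them against -0.12 with TMM.

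**Figure D3:**
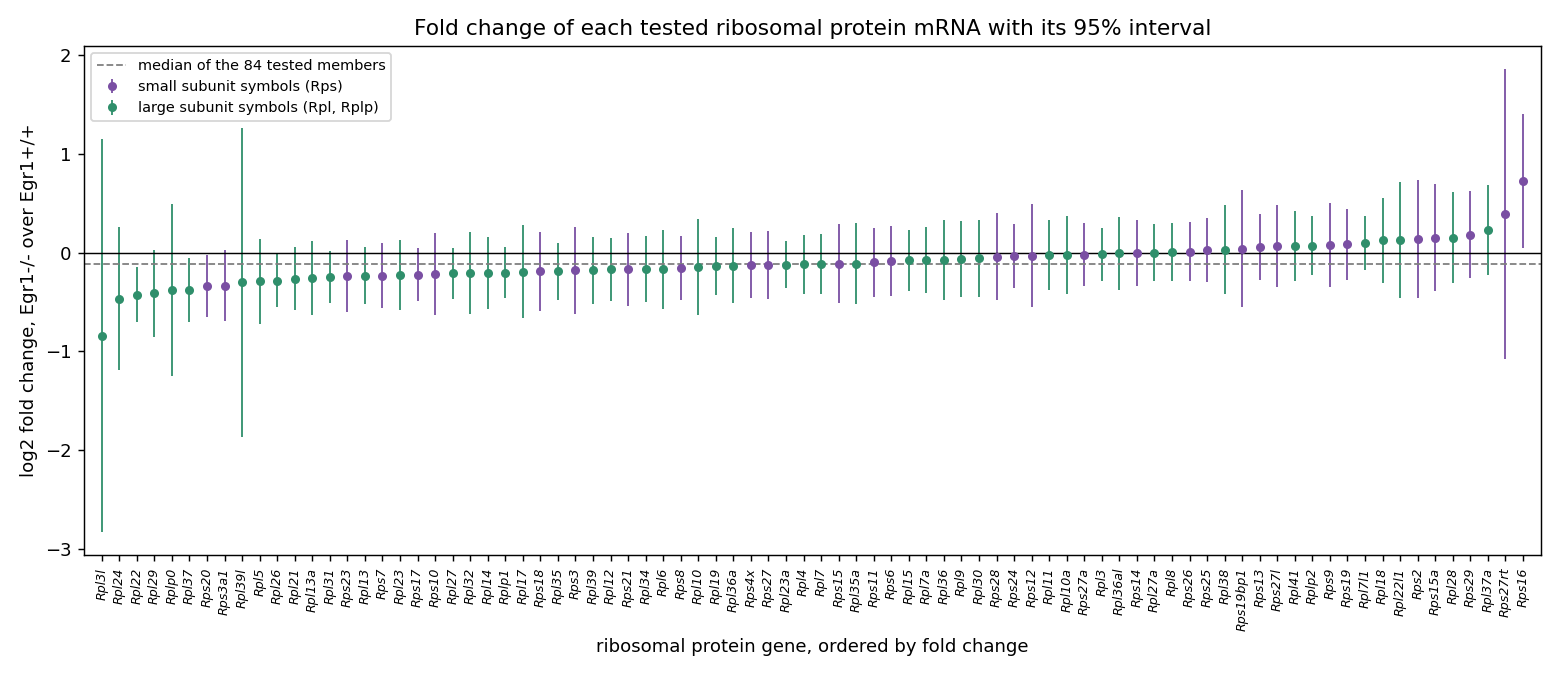
Fitted log2 fold change (Egr1-/- over Egr1+/+) of 82 of the 84 tested members with 95% intervals from the edgeR quasi-likelihood fit, ordered by size, purple for Rps symbols and green for Rpl and Rplp symbols. Most points lie slightly below 0, the dashed median of all 84 is at -0.12, and the interval leaves out 0 in 5 members before adjustment.

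The core members also stood at different heights in mice of the same genotype. Each core member was expressed as its log2 CPM minus its mean over the 6 mice. The median of these deviations over the 76 core members was -0.19, 0.12 and 0.21 in Egr1+/+ mice 1, 2 and 3, and -0.17, 0.02 and 0.00 in Egr1-/- mice 1, 2 and 3. The median was thus lowest in mouse 1 of each genotype, though not every core member was low there. The SD of the deviations was 0.250 in Egr1+/+ mouse 1, the widest of the 6 mice, and 0.145 in Egr1-/- mouse 1. Egr1+/+ mouse 1 held the lowest value of 39 of the 76 members and Egr1-/- mouse 1 that of 26, while Egr1+/+ mouse 3 held the highest value of 41 and Egr1+/+ mouse 2 that of 26. The spread within a genotype was taken as the median of the within-genotype SD on the log2 scale. It was 0.225 for the core members and 0.157 for the 6494 protein-coding genes at or above the 10th percentile of the members' level.

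**Figure D4:**
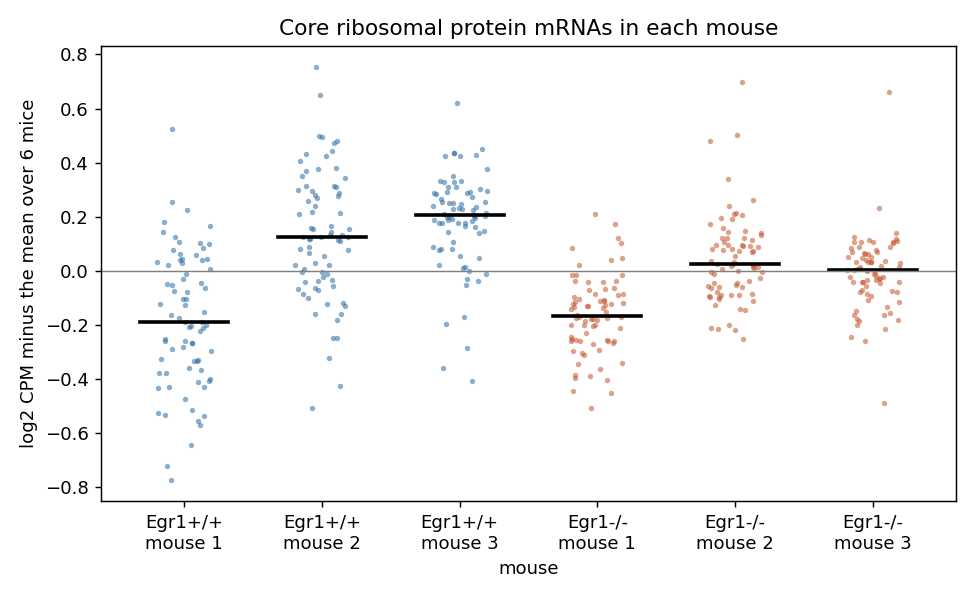
Deviation of each of the 76 core members from its own mean over 6 mice, on the log2 CPM scale, by mouse, blue for Egr1+/+ and orange for Egr1-/-, with black lines at the medians. The medians were -0.19 and -0.17 in mouse 1 of each genotype and 0.21 in Egr1+/+ mouse 3.

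The members with the smallest p that were lower in Egr1-/- mice were mostly large subunit proteins, as were 38 of the 59 core members below 0. The edgeR unadjusted p was under 0.05 in 3 of 46 large (6.52%) and 2 of 30 small (6.67%) subunit core members, in either direction. Both shares lay below the 10.7% of all tested genes. Rpl22 (chr4:152325742-152334071, GRCm38, plus strand), a large subunit protein known for its role in T cell development, had 114, 130 and 126 CPM in Egr1+/+ mice and 80.9, 96.2 and 97.8 CPM in Egr1-/- mice. Every Egr1-/- mouse lay below every Egr1+/+ mouse. The log2 fold change of Rpl22 was -0.43 ± 0.123 (SE, edgeR unadjusted p = 0.00689, adjusted p = 0.261), and its adjusted p ranged from 0.0977 with DESeq2 to 0.720 without Egr1-/- mouse 3.
Rpl37 (91.9, 81.0 and 114 CPM against 68.9, 77.1 and 74.3 CPM) and Rpl26 (122, 115 and 139 CPM against 98.8, 104 and 106 CPM) also did not overlap. Their log2 fold changes were -0.38 (edgeR adjusted p = 0.379) and -0.28 (adjusted p = 0.435). Rpl26 is known to bind p53 mRNA. Rps20, a small subunit protein, had 75.8, 96.0 and 96.5 CPM against 65.8, 79.9 and 66.7 CPM, so that Egr1-/- mouse 2 overlapped Egr1+/+ mouse 1, with a log2 fold change of -0.34 (adjusted p = 0.434). The next by p were Rpl31 (log2 fold change -0.25, no overlap) and Rpl29 (-0.41, with overlap).

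In the other direction the leading member was Rps16, a small subunit protein of low count. It had 3.67, 2.63 and 2.83 CPM in Egr1+/+ mice and 2.85, 6.20 and 6.05 CPM in Egr1-/- mice, from 79 to 192 counts. Egr1-/- mouse 1 lay among the Egr1+/+ mice, while the other two lay above them. The log2 fold change was 0.72 ± 0.301 (SE, edgeR adjusted p = 0.441), and it was 1.01 without Egr1-/- mouse 1. Rpl37a (log2 fold change 0.23), Rps29 (0.18), Rpl28 (0.15) and Rpl7l1 (0.10) were also among the 6 of lowest p in this direction, with adjusted p from 0.744 to 0.844. In Rpl37a and Rps29 the lowest value was that of Egr1+/+ mouse 1.

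The stalk of the large subunit, which recruits translation factors, is built from Rplp0, Rplp1 and Rplp2. Rplp0 was also the reference gene that the study used for RT-qPCR of 4-month-old mice, while Actb served at 2 weeks. Rplp0 had 45.4, 122 and 120 CPM in Egr1+/+ mice and 54.7, 110 and 55.4 CPM in Egr1-/- mice, the widest spread of any core member. The values fell into 3 high and 3 low mice, with both genotypes in each. Its log2 fold change was -0.38 ± 0.385 (SE), with a 95% interval from -1.25 to 0.49. Without Egr1-/- mouse 2 it was -0.79, and without Egr1+/+ mouse 2 it was -0.17. Rplp1 had 163, 152 and 180 CPM against 140, 144 and 146 CPM, with no overlap and a log2 fold change of -0.20 (edgeR adjusted p = 0.591). Rplp2 had 116, 114 and 144 CPM against 119, 136 and 137 CPM, a log2 fold change of 0.07, and total-count scaling turned its sign to -0.08. Neither shared the split of Rplp0, but members outside the stalk did. The 3 low mice of Rplp0 were also the 3 lowest in Rpl5, Rpl32, Rps15 and Rps21, among others. The distance was larger in Rplp0, where the highest mouse had 2.69 times the CPM of the lowest. It was 1.77, 1.64, 1.54 and 1.51 times in Rpl5, Rpl32, Rps15 and Rps21. Actb had 696, 616 and 723 CPM against 693, 738 and 730 CPM (log2 fold change 0.09 with TMM and -0.06 with total counts). The 3 low mice had 1560 to 1824 raw counts of Rplp0 and the 3 high mice 3419 to 5158. The Rplp0 pseudogene with the most counts, Gm9625, had 132 to 194 counts in the low mice and 52 to 160 in the high ones.

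**Figure D5:**
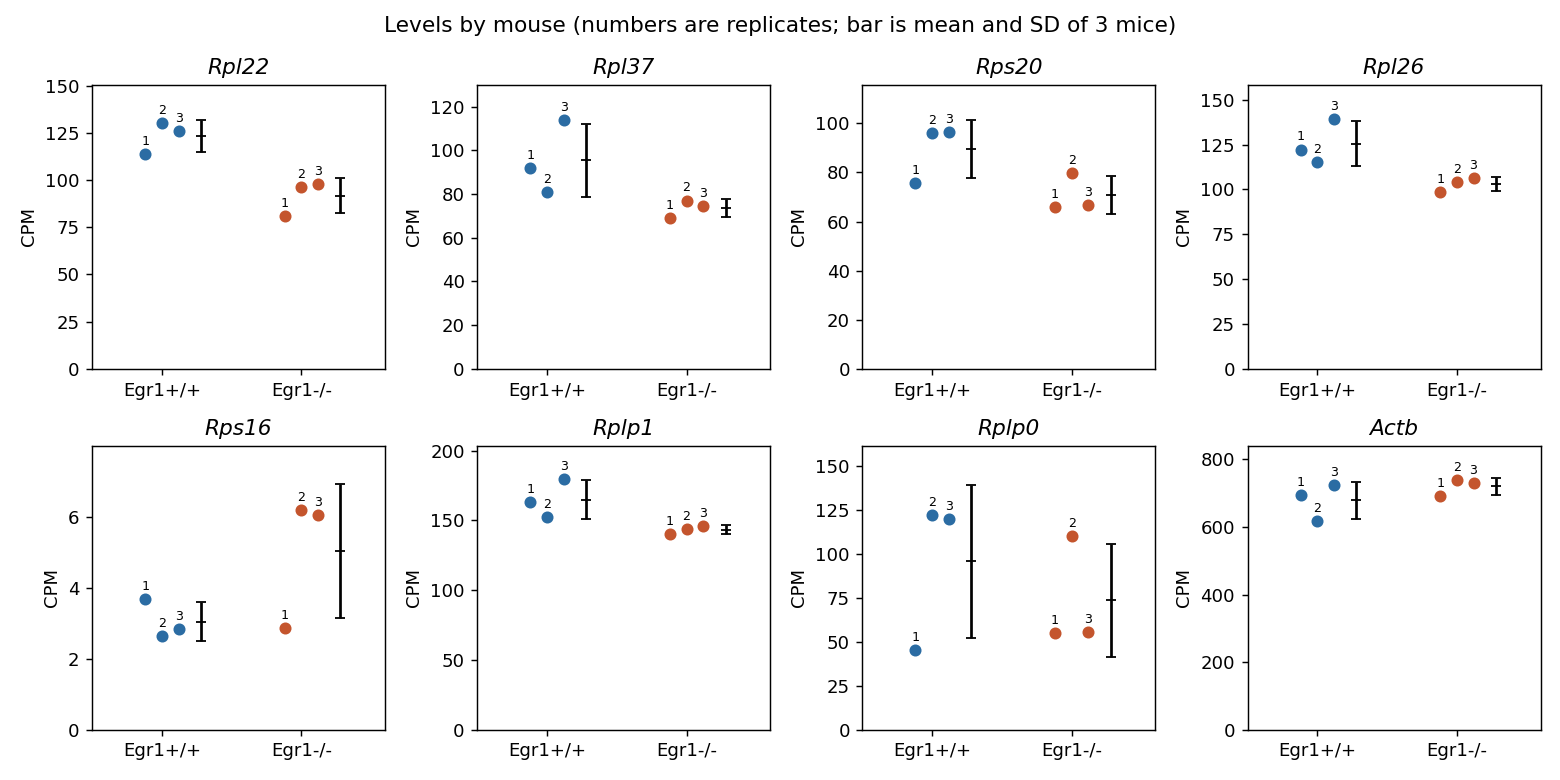
CPM by mouse for Rpl22, Rpl37, Rps20, Rpl26, Rps16, the stalk genes Rplp1 and Rplp0, and Actb, with axes from 0, where numbers mark the replicate and bars give mean and SD of 3 mice. Rpl22, Rpl37 and Rpl26 do not overlap between genotypes, and Rplp0 splits into 3 high and 3 low mice that include both.

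Members known for other roles had values that overlapped between genotypes. Rps6, the S6 kinase substrate of the small subunit, had 53.0, 60.1 and 76.8 CPM against 53.5, 59.0 and 66.5 CPM, a log2 fold change of -0.09. Rpl5 and Rpl11, which bind Mdm2 when ribosome assembly is disturbed, had log2 fold changes of -0.29 and -0.02. Rps27a, a fusion of ubiquitin and a small subunit protein, had -0.02. Rps3a1, the highest member per kilobase of merged exon, had 370, 357 and 393 CPM against 241, 359 and 287 CPM. Its log2 fold change was -0.34 (edgeR adjusted p = 0.496), and Egr1-/- mouse 2 lay among the Egr1+/+ mice. Rps19bp1 had a log2 fold change of 0.04.

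Members differed widely in how far their sequence was shared with other annotated transcripts. Of the 50-base stretches of a member's transcript, the median share found in annotated transcripts of other genes was 49.4%, and Rpl39l, Rpl3l and Rps19bp1 were among those that had none. The largest shares were 98.6% for Rps27, 95.1% for Rpl35 and 93.8% for Rpl5. Stretches were matched on either strand, so exons of another gene on the opposite strand at the same place can enter the share. Rpl35 (with Arpc5l and Wdr38) and Rpl5 (with Fam69a) have such overlaps, whose part in their shares was not measured. A single read within a stretch that is repeated at another place cannot be assigned to one gene, so these levels are uncertain. The labels give single-end reads and the study's methods paired-end reads. With pairs, a mate outside the stretch can place the read, so how many reads the shared stretches touch is not known. Over the 42 tested members with under 50% shared stretches the median difference was -0.06 on the log2 scale, and over the other 42 it was -0.13. An edgeR unadjusted p under 0.05 was found in 4 of the first 42 (9.52%) and 1 of the other 42 (2.38%), against 10.7% of all tested genes. A total of 28 members carried 54 snoRNAs in introns, with 5 in Rpl4.

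Genes that work with the ribosome showed no member past the threshold either. Of the 4 ribosomal proteins whose names the rule left out, Rpsa, Fau and Rack1 had log2 fold changes of -0.04, 0.06 and 0.03, and the other is not reported here, so these values do not describe the set. Among 51 ribosome biogenesis genes 0 passed the adjusted threshold by edgeR, the median was 0.03, and 1 (1.96%) was higher at an unadjusted p under 0.05 (background 5.06%). This was Nop10, a component of box H/ACA ribonucleoproteins, with 10.6, 13.4 and 10.3 CPM against 19.6, 11.7 and 16.5 CPM (log2 fold change 0.48, adjusted p = 0.434). The 18 other translation genes with TOP mRNAs, such as Pabpc1 (log2 fold change 0.22), the poly(A)-binding protein, had a median of -0.06. Of these, 0 had an unadjusted p under 0.05 (background 10.7%). Among 17 genes of mTORC1 and LARP1, which act on TOP mRNA translation, 2 (11.8%) were higher at an unadjusted p under 0.05, where 5.06% of all tested genes were higher and 10.7% passed in either direction, and 0 passed the adjusted threshold by edgeR. Eif4ebp2, a translation repressor, had 4.37, 4.59 and 4.85 CPM against 6.75, 7.55 and 6.69 CPM, a log2 fold change of 0.60 (adjusted p = 0.227), and Mtor had 59.4, 53.0 and 55.9 CPM against 73.6, 60.7 and 69.8 CPM, a log2 fold change of 0.28 (adjusted p = 0.445). Both were among the 4 of 17 genes that lay above the Egr1+/+ mice in every Egr1-/- mouse (background 8.15%).

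The ribosomal proteins of the mitochondrion, which form a separate ribosome, leaned the other way by count. Of 77 tested genes, 67 were above 0 and 10 below, with a median log2 fold change of 0.16, and 0 passed the adjusted threshold by edgeR. At an unadjusted p under 0.05, 5 of them were higher (background 5.06%) and 1 was lower (background 5.60%), so 7.79% in all against 10.7% of all tested genes. The genotypes did not overlap in 10 of the 77 that were higher (background 8.15%) and 1 that was lower (background 8.10%). The difference in direction between the cytosolic and the mitochondrial genes was not tested.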

How the data were processed

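Total RNA of 6 fat pads was depleted of ribosomal RNA and made into strand-specific libraries. The authors mapped the reads with TopHat2 and Bowtie2 to GRCm38, counted them per gene with featureCounts and deposited raw counts for each mouse. The multimapping and strand settings of featureCounts were not given in the sources used here, and the labels and the methods differ on single-end or paired-end reads, so reads shared between a member and a pseudogene may be lost or split. Identifiers were named through GENCODE M21, which matched 46574 of 47069. Counts were fitted in R 4.3.3 with edgeR 4.0.16 (TMM, filterByExpr, quasi-likelihood test, genotype only, Benjamini-Hochberg over all tested genes, threshold 0.05). DESeq2 1.42.0 and limma 3.58.1 gave alternatives, as did other normalizations and filters, a replicate block and leaving out each mouse. The main edgeR fit, limma-voom and DESeq2 were tried on simulated counts with known changes. The other settings were not. Intervals are 95% intervals of the fit. The share of 50-base stretches was computed on either strand against annotated transcripts of all other genes, since a genome was not used here. Named members were the paralogs with their parents, the stalk proteins, up to 6 with the lowest p in each direction, the 5 highest and 3 lowest levels, Rps6, Rpl5, Rpl11, Rps27a, Rps19bp1 and the 3 most shared, with up to 3 genes of the other lists. A few genes that the counts include are not reported here by name and not drawn. The members, lists and rules were chosen with earlier results of these data known. Mice of a genotype differed well beyond counting noise. The mice are separate animals, of which the study says 1 of each genotype were littermates without saying which.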

Additional observations from a re-analysis of the deposited data

How the results depend on the processing

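No member passed the adjusted threshold under any alternative run, with 17 settings in all including the main one, and the other ribosome and translation lists also had 0. Members higher at an unadjusted p under 0.05 numbered 0 with total counts, with limma-voom and with the replicate block, against 1 in the main fit. Over the fits without 1 mouse, members lower at an unadjusted p under 0.05 numbered 1 to 14, members higher 0 to 3, and the median member log2 fold change lay between -0.22 and -0.02. The most, 14, came without Egr1+/+ mouse 1, where 17.9% of members and 8.73% of all genes had an unadjusted p under 0.05 in either direction, and 1 without Egr1-/- mouse 1, where 2.38% and 13.0% did. In the main fit these shares were 5.95% and 10.7%, with DESeq2 8.24% and 4.74%, and without a filter 8.24% and 7.49%. The median of members with under 50% shared stretches was -0.06, computed on annotated transcripts in place of the genome.

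Egr1 passed the adjusted threshold with total counts (log2 fold change -2.39, adjusted p = 0.000372), without a filter on low counts (-2.18, 1.39e-20) and with DESeq2 (-2.19, 1.75e-10), and over the fits without 1 mouse its fold change lay between -2.39 and -1.84. Counts of all genes past the threshold were 3 in the main fit, 335 with DESeq2, 552 without a filter, 79 with total counts, 1 with limma-voom, 0 with upper-quartile normalization, the stricter filter and the replicate block, and 0 to 59 without 1 mouse. The sign turned with total counts for Rpl7l1 (-0.0497), Rps27l (-0.0935), Rplp2 (-0.0788), Rps19bp1 (-0.104) and Actb (-0.0610), and without a filter for Rpl36al (0.0036). Leaving out 1 mouse turned the sign of Rpl22l1 (-0.11 to 0.39), Rps27l (-0.0422 to 0.23), Rps29 (-0.0133 to 0.45), Rpl28 (-0.0147 to 0.45), Rpl10 (-0.38 to 0.0604), Rpl11 (-0.16 to 0.0920), Rps27a (-0.17 to 0.0627), Rps19bp1 (-0.16 to 0.30), Rpl36al (-0.14 to 0.0928), Rpl39l (-0.72 to 0.23), Rpl3 (-0.0882 to 0.0455), Rpl7 (-0.22 to 0.00836), Rpl36a (-0.26 to 0.00916), Rps6 (-0.21 to 0.0748) and Rps27rt (-0.70 to 0.77). The cause was not tested.

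Replicate numbers gave no sign that they pair the mice. The correlations of same-numbered deviations were -0.09, 0.11 and -0.13, and 2 of 6 mice correlated best with the mouse of their own number. So few mice cannot exclude a pairing, and the littermates are not identified. With the replicate block 0 members passed, 4 were lower at an unadjusted p under 0.05 and the median was -0.11, while over all genes 0 passed and 1909 had an unadjusted p under 0.05, against 3 and 1884 without it. Members with few counts, such as Rpl10l and Rps27rt, are limited by depth.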

Other observations

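Annotated pseudogenes that share at least one 50-base stretch with a ribosomal protein transcript numbered 835 in the files. Of these, 102 had no count in any mouse and 61 had enough to be tested. None passed the adjusted threshold by edgeR and 0 had an unadjusted p under 0.05, against 10.7% of all tested genes. Their median log2 fold change was 0.04. Their summed counts came to between 2.07% and 3.13% of the summed counts of the members. The lowest p among them was that of Rpl14-ps1, whose counts were 55, 52 and 66 in the wild-type libraries against 33, 23 and 41. Its fitted log2 difference was -0.67 (edgeR adjusted p = 0.480), while its parent Rpl14 had -0.21. It was named after its values were seen.

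Rps4l, a copy of Rps4x that the annotation lists as a transcribed pseudogene, had 1.46, 2.46 and 1.95 CPM in the Egr1+/+ libraries against 1.59, 1.03 and 1.36 CPM, with a fitted log2 difference of -0.55 (edgeR adjusted p = 0.573). The values of the genotypes overlapped.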
